A study of Homo sapiens with 12 samples.

Results

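Interferon-stimulated genes are the effector arm of the antiviral response. Type I interferons (such as IFNB1) and type III interferons (IFNL1 to IFNL3) bind receptors on the cell surface, the receptors activate JAK kinases, and the kinases phosphorylate STAT proteins, which join IRF9 and bind interferon-stimulated response elements in promoters. The genes switched on in this way block viral entry, translation and replication, and epithelial cells make and answer both kinds of interferon. A list of 43 such genes was followed here by symbol. All 43 were found among the 50868 Ensembl identifiers of the count table.

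RNA was sequenced from MKN28 and MKN45, which are established human gastric cancer cell lines, in 12 libraries that form 4 groups of 3. MKN28 cells with a control lentivirus (genotype field WT) were set against MKN28 cells with ZNF165 knockdown, made with a lentivirus that carries an siRNA sequence. MKN45 cells with the control lentivirus (WT) were set against MKN45 cells with a ZNF165 lentivirus (ZNF165 Overexpression), so all 12 libraries come from cells given a lentivirus. ZNF165 is a zinc-finger protein whose gene is expressed mainly in testis and in some tumours. No untransduced cells were among the samples, 1 knockdown sequence and 1 overexpression construct are named, and the labels do not say whether libraries of a group were separate cultures, so p-values measure the spread among these libraries only, and that spread may be technical. ZNF166 and ZNF167 stand in place of ZNF165 in the free-text description of knockdown replicates 2 and 3, whose genotype field, used here, reads ZNF165 knockdown.

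Library totals ranged from 12075813 to 19548445 counts, so that 3 counts, taken as the limit that a count of 0 allows, equal 0.153 to 0.248 CPM (the count scaled to a library total of 1e+06). These floors cover counting error only. ZNF165 itself had 262, 186 and 287 counts in the MKN28 controls and 74, 40 and 22 in the knockdown libraries (log2 fold change −1.47, SE 0.53, edgeR adjusted p = 0.0459). It had 156, 140 and 277 counts in the MKN45 controls and 2115, 1977 and 1909 in the overexpression libraries (log2 fold change 3.09, SE 0.31, edgeR adjusted p = 0.0109). Knockdown libraries 2 and 3 stood apart from library 1: they detected 17620 and 17504 genes, library 1 detected 20560, and the MKN28 controls 21102 to 22579. The summed level of 7 epithelial markers (EPCAM, KRT8, KRT18, KRT19, CDH1, CLDN4 and CLDN7) was 7287 to 7882 CPM by library totals in MKN28 controls and 14586 to 39518 CPM in the knockdown. The markers did not move together: KRT8 had 46360 to 64125 counts in control libraries against 133470, 443431 and 253866 after knockdown. EPCAM had 8675 to 10763 counts against 12554, 1940 and 1815, and CDH1 had 5993 to 8322 against 1460, 772 and 416. The summed level of 4 stromal markers, nearly all COL1A1, was 89.0 to 122 CPM against 24.6 to 44.4 CPM. The leukocyte markers PTPRC and CD3E had at most 3 counts in any library. The summed level of all 6 leukocyte markers was 9.59 to 37.8 CPM in MKN28 controls, mostly CD68, and 34.0 to 40.5 CPM in the knockdown. In MKN45 it was 105 to 139 CPM in controls and 165 to 247 CPM in the overexpression, mostly LYZ, the lysozyme gene, which gastric epithelium also makes. The 3 endothelial markers summed to at most 2.10 CPM in any library. The part of these shifts in the results below was not tested.

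The promoter sequences of a few members, picked by hand among those with a match to the motif below, are printed as examples. RefSeq promoter windows (250 bases before to 50 after the start, GRCh38.p14) were present for 35 of the 43 members. The motif GAAANNGAAA, a short form of the interferon-stimulated response element, was searched on both strands, with overlapping matches counted, and occurred in 23 of these 35 members (65.7%) against 1195 of 27305 genes in the same table (4.38%). The motif TTCNNNGAA, a form of the STAT-binding gamma-activated site, occurred in 12 of 35 members (34.3%) against 9.38% of all genes. A match is only a match of letters. Windows for IFIT2, IFITM2, MX2, OAS2, OASL, USP18, TRIM22 and UBA7 were not in the table. The stretches below run from 250 bases before to 10 bases after the start, 5′ to 3′ on the strand of the gene, with the matches to GAAANNGAAA or its complement in capitals. ISG15 and IFITM3 were higher in the knockdown, IFITM1, IFI44L, DDX60 and DTX3L were lower, and IFIT1 was split between knockdown libraries.
ISG15, chr1:1013247-1013506, plus strand: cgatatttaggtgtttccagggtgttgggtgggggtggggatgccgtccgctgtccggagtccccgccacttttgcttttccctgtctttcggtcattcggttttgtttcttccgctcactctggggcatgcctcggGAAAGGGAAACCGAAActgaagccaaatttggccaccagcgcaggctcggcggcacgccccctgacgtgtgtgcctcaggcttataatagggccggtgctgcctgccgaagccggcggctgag
IFITM3, chr11:320851-321110, minus strand: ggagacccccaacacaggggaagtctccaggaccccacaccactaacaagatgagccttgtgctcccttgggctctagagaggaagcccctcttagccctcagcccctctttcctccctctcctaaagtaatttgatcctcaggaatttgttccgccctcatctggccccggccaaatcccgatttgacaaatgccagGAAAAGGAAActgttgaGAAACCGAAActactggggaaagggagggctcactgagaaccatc
IFITM1, chr11:313790-314049, plus strand: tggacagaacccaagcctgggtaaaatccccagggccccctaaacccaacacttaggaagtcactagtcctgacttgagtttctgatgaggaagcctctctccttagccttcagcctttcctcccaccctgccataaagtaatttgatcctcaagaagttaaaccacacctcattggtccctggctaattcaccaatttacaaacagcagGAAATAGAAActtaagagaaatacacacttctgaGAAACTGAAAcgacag
IFI44L, chr1:78620198-78620457, plus strand: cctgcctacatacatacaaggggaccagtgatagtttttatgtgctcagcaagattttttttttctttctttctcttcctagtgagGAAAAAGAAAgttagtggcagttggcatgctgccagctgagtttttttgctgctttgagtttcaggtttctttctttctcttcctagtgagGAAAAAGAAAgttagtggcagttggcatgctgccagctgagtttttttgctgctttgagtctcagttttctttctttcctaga
DDX60, chr4:168318743-168319002, minus strand: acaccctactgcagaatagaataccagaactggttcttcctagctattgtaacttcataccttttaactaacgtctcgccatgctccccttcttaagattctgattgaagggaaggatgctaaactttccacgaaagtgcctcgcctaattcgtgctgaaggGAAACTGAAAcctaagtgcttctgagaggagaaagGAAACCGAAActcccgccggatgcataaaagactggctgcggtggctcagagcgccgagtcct
DTX3L, chr3:122564088-122564347, plus strand: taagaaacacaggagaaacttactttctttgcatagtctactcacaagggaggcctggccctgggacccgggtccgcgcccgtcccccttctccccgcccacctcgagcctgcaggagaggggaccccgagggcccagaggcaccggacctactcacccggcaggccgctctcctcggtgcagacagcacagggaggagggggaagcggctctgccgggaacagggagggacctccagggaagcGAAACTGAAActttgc
IFIT1, chr10:89392373-89392632, plus strand: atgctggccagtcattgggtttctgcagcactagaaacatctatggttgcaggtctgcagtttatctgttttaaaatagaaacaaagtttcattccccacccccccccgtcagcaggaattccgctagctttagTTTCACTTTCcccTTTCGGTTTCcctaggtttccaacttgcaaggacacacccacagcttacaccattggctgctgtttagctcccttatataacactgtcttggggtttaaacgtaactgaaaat
ISG15 carried overlapping matches 113 and 107 bases before its start, and IFIT1 carried matches on the opposite strand 116 and 103 bases before its own. IFITM3 had matches at 52 and 35 bases and its neighbour IFITM1 at 40 and 6 bases. In DDX60 they lay at 88 and 53 bases, and in IFI44L the same 10 letters stood at 164 and 73 bases within a repeated stretch. The match 6 bases before the DTX3L start (chr3:122564332-122564341) is also the match 41 bases before the start of PARP9, which is transcribed the other way. A match to GAAANNGAAA was found in 3 of 5 members with a window that were higher in the knockdown, in 7 of 12 that were lower and in 11 of 14 that passed no threshold. Members on either side of the knockdown comparison therefore carried the motif, and STAT2, OAS1, RNF213, IFI16, SP110, IRF1 and IFI35, all called there, did not have it in this window.

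In the ZNF165 knockdown the members did not move one way. Of the 38 members with enough counts to be tested, 6 were higher (IRF1, ISG15, OASL, IFITM3, IFI6 and IFI35), 13 were lower (STAT2, HERC5, OAS1, MX2, IFITM1, DDX60, SAMD9, RNF213, IFI44L, IFI16, PARP14, DTX3L and SP110) and 19 did not pass the test (edgeR, quasi-likelihood F test, adjusted p under 0.05 by Benjamini and Hochberg over all genes tested). Among all 14939 genes tested, 19.2% were higher and 21.6% lower, so the 15.8% of tested members that were higher lay near the background and the 34.2% that were lower lay above it. The median log2 fold change was −1.36 over the tested members, with IFI44L at its fitted value or at its bound, and −0.20 over all genes tested. The other 5 members, GBP1, SAMD9L, XAF1, TRIM22 and EPSTI1, were too low to test. ISG15 rose about 10.6-fold, while RNF213 fell to 3.45% of its control level. Levels below are CPM scaled with TMM factors within MKN28, replicates 1, 2 and 3 in order. In bulk RNA, fewer expressing cells and less RNA per cell cannot be told apart.

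**Figure D1:**
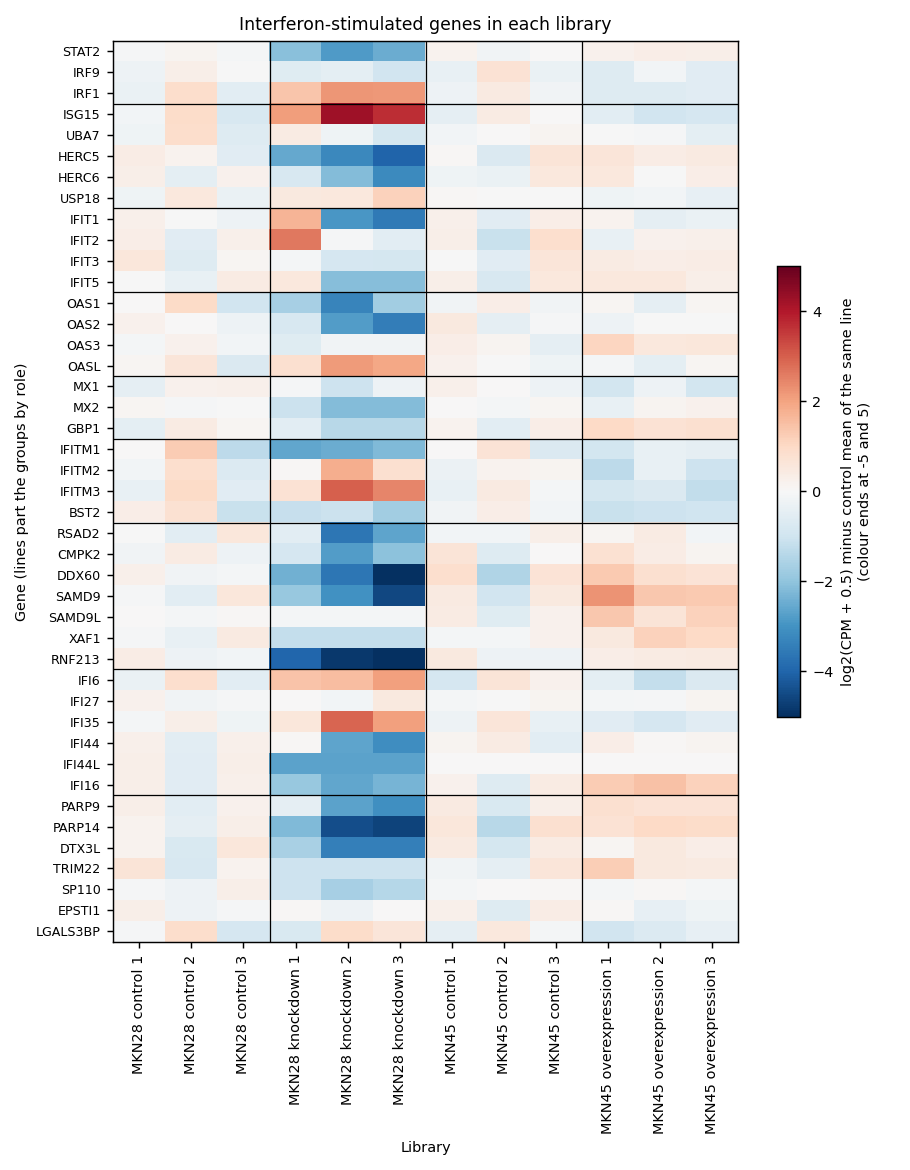
Level of the 43 interferon-stimulated genes (rows, by role) in each of the 12 libraries (columns), as log2(CPM + 0.5) minus the control mean of the same line, with red above and blue below it. Most rows of the knockdown columns are blue, ISG15, IRF1, OASL, IFITM3, IFI6 and IFI35 are red, IFIT1 and IFIT2 are red in knockdown library 1 alone, and the MKN45 overexpression columns are pale.

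The members that carry the signal from the receptor parted. STAT2 (chr12:56341597-56360155), the subunit that gives the interferon complex its activation domain, stood at 61.9, 70.4 and 59.7 CPM in the controls and at 14.5, 8.496 and 10.99 CPM in the knockdown. Every knockdown library was below every control, and STAT2 fell to 17.7% of control (log2 fold change −2.50, SE 0.47, edgeR adjusted p = 0.00463). Its partner IRF9 (chr14:24161053-24166565), the DNA-binding subunit, stood at 8.48, 12.7 and 10.2 CPM against 6.62, 7.11 and 5.04 CPM, which did not pass the test (log2 fold change −0.74, SE 0.49, edgeR adjusted p = 0.248). In 2 of 14 alternative runs IRF9 was called lower. These used library totals in place of TMM factors (−1.51, edgeR adjusted p = 0.0474) or removed a length and GC trend (−1.67, 0.00786). IRF1 (chr5:132481609-132490798), a transcription factor induced by interferon gamma and by NF-kB signalling, moved the other way. Its level was 18.4, 43.5 and 16.0 CPM in the controls and 62.2, 109 and 108 CPM in the knockdown, a 3.59-fold rise with no overlap between the groups (log2 fold change 1.84, SE 0.54, edgeR adjusted p = 0.0211).

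ISG15 conjugation, the linking of the ubiquitin-like ISG15 protein to other proteins, showed the same parting within a pathway. ISG15 (chr1:1001138-1014540) stood at 179, 371 and 111 CPM in the controls and at 825, 3637 and 2514 CPM in the knockdown (log2 fold change 3.40, SE 0.70, edgeR adjusted p = 0.00569). All knockdown libraries were above all controls, and libraries 2 and 3 were several times above library 1. HERC5 (chr4:88457117-88506163), the main ligase that attaches ISG15, went down from 104, 90.7 and 54.6 CPM to 13.2, 8.10 and 4.58 CPM (log2 fold change −3.26, SE 0.57, edgeR adjusted p = 0.00387). Its relative HERC6, next to it on chromosome 4, went from 20.3, 11.7 and 19.4 CPM to 9.44, 3.36 and 1.37 CPM and missed the threshold (log2 fold change −1.84, edgeR adjusted p = 0.055). UBA7, the activating enzyme, and USP18, the protease that removes ISG15, had log2 fold changes of −0.33 and 0.72 and did not pass. Of these 5 genes 1 was higher, 1 was lower and 3 were not called. ISG15 made up 7.77 to 21.2% of all counts on the 43 members in MKN28 controls, 26.3% in knockdown library 1 and 72.0 and 67.8% in libraries 2 and 3, and so the summed counts of the list mostly follow ISG15 there: they were 0.192 to 0.228% of all counts in controls and 0.268 to 0.323% in the knockdown, although more members were lower than higher.

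The IFIT genes, whose products bind viral RNA that lacks the marks of the cell's own messages, did not move alike in the knockdown libraries. None of the 4 members passed the test over the 3 libraries. IFIT1 (chr10:89392546-89406486) stood at 196, 163 and 139 CPM in the controls and at 530, 21.3 and 13.7 CPM in the knockdown. Library 1 was above all controls and libraries 2 and 3 were below all of them, so that the log2 fold change of 0.18 (SE 1.07, edgeR adjusted p = 0.904) describes none of the libraries. Without knockdown library 1 the log2 fold change was −3.12, and with library 1 as the only knockdown library it was 1.70. IFIT2 (chr10:89283694-89309276) stood at 210, 112 and 201 CPM in the controls and at 1055, 160 and 118 CPM in the knockdown. Only library 1 left the range of the controls (log2 fold change 1.35, SE 0.77, edgeR adjusted p = 0.18). IFIT5 (chr10:89414586-89421001) had 9.72, 7.38 and 13.0 CPM against 14.2, 1.88 and 1.83 CPM, with library 1 above the controls and the others below (log2 fold change −0.73, edgeR adjusted p = 0.475). IFIT3 had a log2 fold change of −0.64 and did not pass.

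In IFI44 and RSAD2 too, knockdown libraries 2 and 3 lay below library 1. These 2 genes, with IFIT1, IFIT2 and IFIT5, are the 5 members in which library 1 differed most from libraries 2 and 3, and since they were picked for that gap no test of it is given. IFI44 (chr1:78649796-78664078) stood at 19.98, 11.4 and 19.8 CPM in controls and at 17.3, 2.27 and 1.49 CPM in the knockdown, so library 1 stayed within the control range and libraries 2 and 3 lay below it (log2 fold change −1.26, edgeR adjusted p = 0.246). RSAD2 (chr2:6865806-6898239), which encodes viperin, an enzyme that makes a chain-terminating nucleotide, stood at 11.6, 8.06 and 17.5 CPM against 8.16, 0.494 and 1.49 CPM (log2 fold change −1.85, edgeR adjusted p = 0.107). Over the 38 tested members the median of log2(CPM + 0.5) relative to the control mean was −0.61 in knockdown library 1, −2.13 in library 2 and −1.89 in library 3, beside −0.04, −0.38 and −0.41 over all genes tested. Members below the control mean numbered 24, 29 and 28 of 38 in these libraries.

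**Figure D2:**
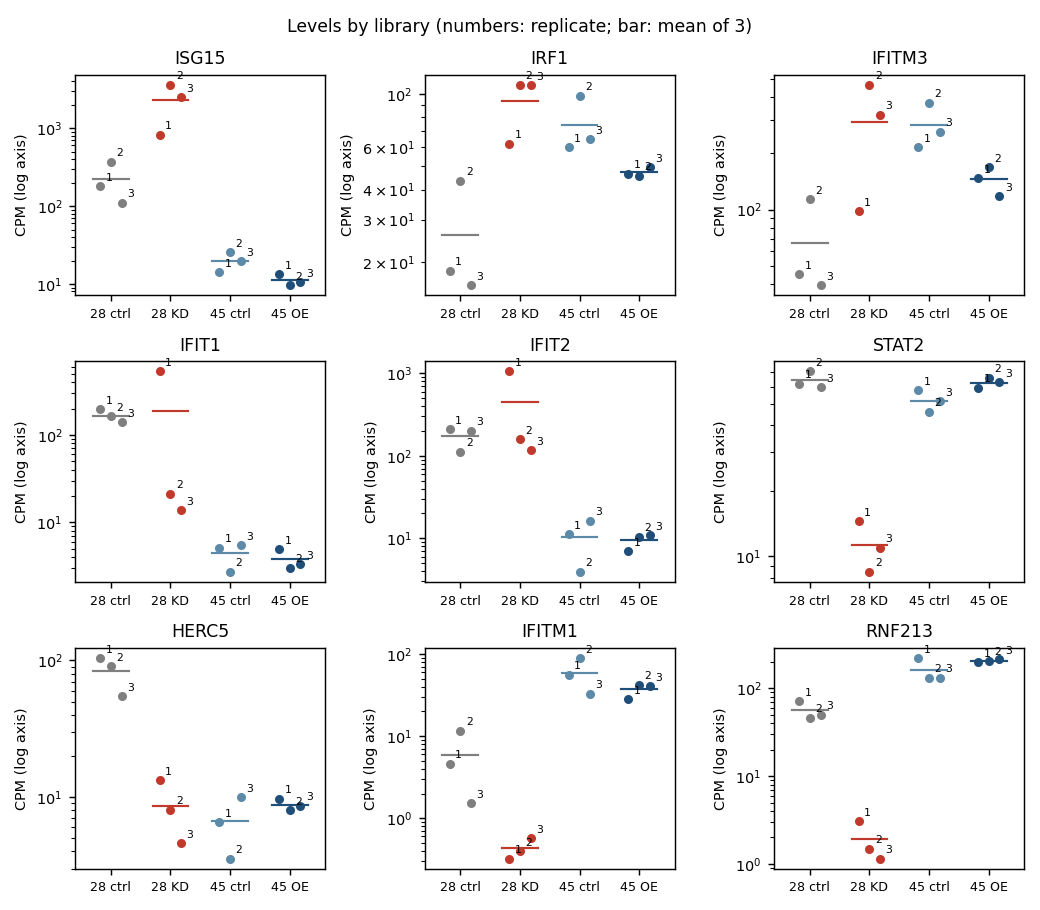
CPM (log axis, TMM-scaled within each line) of 9 members in each library, with the replicate number beside each point and a bar at the mean of 3. ISG15, IRF1 and IFITM3 are higher and STAT2, HERC5, IFITM1 and RNF213 lower in the MKN28 knockdown (28 KD) than in its controls (28 ctrl), with 1 overlap, that of IFITM3 library 1 with control 2. IFIT1 and IFIT2 are high in knockdown library 1 alone. No member passes the threshold in the MKN45 overexpression (45 OE). Its libraries lie below all controls (45 ctrl) in ISG15, IRF1 and IFITM3 and above all of them in STAT2. The share of all genes separated in this way was not counted. At an unadjusted edgeR p under 0.05, 13.3% of all genes were higher and 13.4% lower in that arm.

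The oligoadenylate synthetases, which activate RNase L on double-stranded RNA, parted as well. OASL (chr12:121019111-121039242), a family member that lacks the synthetase activity, stood at 45.2, 63.6 and 25.4 CPM in the controls and at 74.2, 184 and 162 CPM in the knockdown, a 3.13-fold rise with no overlap (log2 fold change 1.64, SE 0.53, edgeR adjusted p = 0.0315). OAS1 fell to 18.7% of control (log2 fold change −2.42, SE 0.71, edgeR adjusted p = 0.0211). The adjoining OAS3 and OAS2 had log2 fold changes of −0.32 and −2.04 and did not pass (edgeR adjusted p = 0.561 and 0.0602). Among the GTPases, MX2 (chr21:41361943-41409390), a restriction factor at the nuclear pore, stood at 1.90, 1.65 and 1.69 CPM in the controls, at 0.578 CPM in knockdown library 1 and at 0 in libraries 2 and 3 (log2 fold change −2.90, SE 0.99, edgeR adjusted p = 0.0382). MX1, 10914 bases away, had a log2 fold change of −0.56 and did not pass.

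The antiviral membrane proteins gave opposite calls within 1 gene cluster. IFITM3 (chr11:319669-327537), which blocks fusion of virus and endosome membranes, stood at 45.3, 113 and 39.6 CPM in the controls and at 97.8, 466 and 321 CPM in the knockdown (log2 fold change 2.16, SE 0.66, edgeR adjusted p = 0.0244). Knockdown library 1 lay below control 2, and libraries 2 and 3 were above all controls. IFITM1 (chr11:313506-315272), 4397 bases from IFITM3, stood at 4.63, 11.6 and 1.52 CPM in the controls and at 0.321, 0.395 and 0.572 CPM in the knockdown, with no overlap (log2 fold change −3.79, SE 0.84, edgeR adjusted p = 0.00742). IFITM2 stood at 1.16, 2.80 and 0.650 CPM against 1.41, 5.93 and 2.75 CPM and did not pass (log2 fold change 1.12, edgeR adjusted p = 0.243). These paralogs are close in sequence and the annotated spans of IFITM1 and IFITM2 overlap, so how the authors' counting shared reads among them is uncertain. BST2, tetherin, which holds budding virions at the cell surface, had a log2 fold change of −1.79 and missed the threshold (edgeR adjusted p = 0.0565).

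The other antiviral effectors were lower or not called. RNF213 (chr17:80260866-80398786), a very large E3 ligase that also coats intracellular bacteria with ubiquitin, stood at 72.0, 46.2 and 50.4 CPM in the controls and at 3.08, 1.48 and 1.14 CPM in the knockdown (log2 fold change −4.86, SE 0.61, edgeR adjusted p = 0.00367). DDX60 (chr4:168216293-168318807), a helicase linked to RNA sensing, fell from 45.5, 33.6 and 35.4 CPM to 6.68, 2.67 and 0.458 CPM (log2 fold change −3.52, SE 0.80, edgeR adjusted p = 0.0081). SAMD9 (chr7:93099513-93118023), a restriction factor of poxviruses, fell from 55.0, 39.5 and 84.7 CPM to 15.03, 6.52 and 1.95 CPM (log2 fold change −2.92, SE 0.72, edgeR adjusted p = 0.0108). In all 3 genes every knockdown library lay below every control, and library 1 was the highest of the knockdown libraries. CMPK2 did not pass (log2 fold change −2.27, edgeR adjusted p = 0.0703). XAF1, a pro-apoptotic member, had 0.579, 0.382 and 1.04 CPM in controls and 0 counts in the 3 knockdown libraries. Set against 3 counts summed over the group, the floor used for such folds, it was at least 7.61-fold lower, and it was too low to test. SAMD9L was at or under that floor in both groups.

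Of the 6 genes named IFI, 2 were higher, 2 lower and 2 not called. IFI6 (chr1:27666061-27672218), a small membrane protein, stood at 21.8, 50.2 and 18.9 CPM in the controls and at 74.3, 82.0 and 116 CPM in the knockdown (log2 fold change 1.58, SE 0.52, edgeR adjusted p = 0.0336). IFI35 (chr17:43006725-43014456) stood at 9.89, 13.3 and 9.19 CPM against 16.1, 84.1 and 45.2 CPM (log2 fold change 2.17, SE 0.63, edgeR adjusted p = 0.02). In both genes all knockdown libraries were above all controls, though IFI35 in library 1 was only just so. IFI44L (chr1:78619922-78646145), 3651 bases from IFI44, had 3.39, 1.65 and 3.47 CPM in the controls and no count in the knockdown libraries, so it was at least 32.6-fold lower by the group floor (edgeR adjusted p = 0.0037). IFI16 (chr1:158999968-159055155), a DNA sensor, stood at 3.23, 1.57 and 3.16 CPM against 0.321, 0 and 0.114 CPM (log2 fold change −3.97, SE 0.88, edgeR adjusted p = 0.00723). IFI27 had a log2 fold change of 0.15 and did not pass.

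In the last group PARP14 (chr3:122680618-122730840), an ADP-ribosyltransferase, fell from 98.6, 64.2 and 108 CPM to 18.5, 3.66 and 3.09 CPM (log2 fold change −3.41, SE 0.74, edgeR adjusted p = 0.0068). DTX3L (chr3:122564238-122575203), a ubiquitin ligase that works in complex with PARP9, fell from 56.7, 29.3 and 73.4 CPM to 15.9, 4.15 and 4.23 CPM (log2 fold change −2.70, SE 0.68, edgeR adjusted p = 0.0114). PARP9, which starts beside DTX3L on the opposite strand and shares the printed motif, stood at 41.0, 23.1 and 39.1 CPM against 24.6, 4.74 and 3.55 CPM and did not pass (log2 fold change −1.64, edgeR adjusted p = 0.0955). Knockdown library 1 lay within the control range for PARP9, and it lay below that range for PARP14 and DTX3L. SP110, a nuclear body protein, fell to 36.3% of control (log2 fold change −1.46, SE 0.51, edgeR adjusted p = 0.0405), and LGALS3BP, a secreted glycoprotein, had a log2 fold change of 0.24 and did not pass. TRIM22 had 1.12, 0.0848 and 0.650 CPM in controls and 0 counts in the knockdown, at least 7.13-fold lower by the group floor, and was not tested. GBP1 and EPSTI1 were also too low to test: GBP1 had 0.414, 1.23 and 0.867 CPM against 0.385 CPM in library 1 and 0 in libraries 2 and 3, and EPSTI1 had at most 0.248 CPM in any of these libraries.

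**Figure D3:**
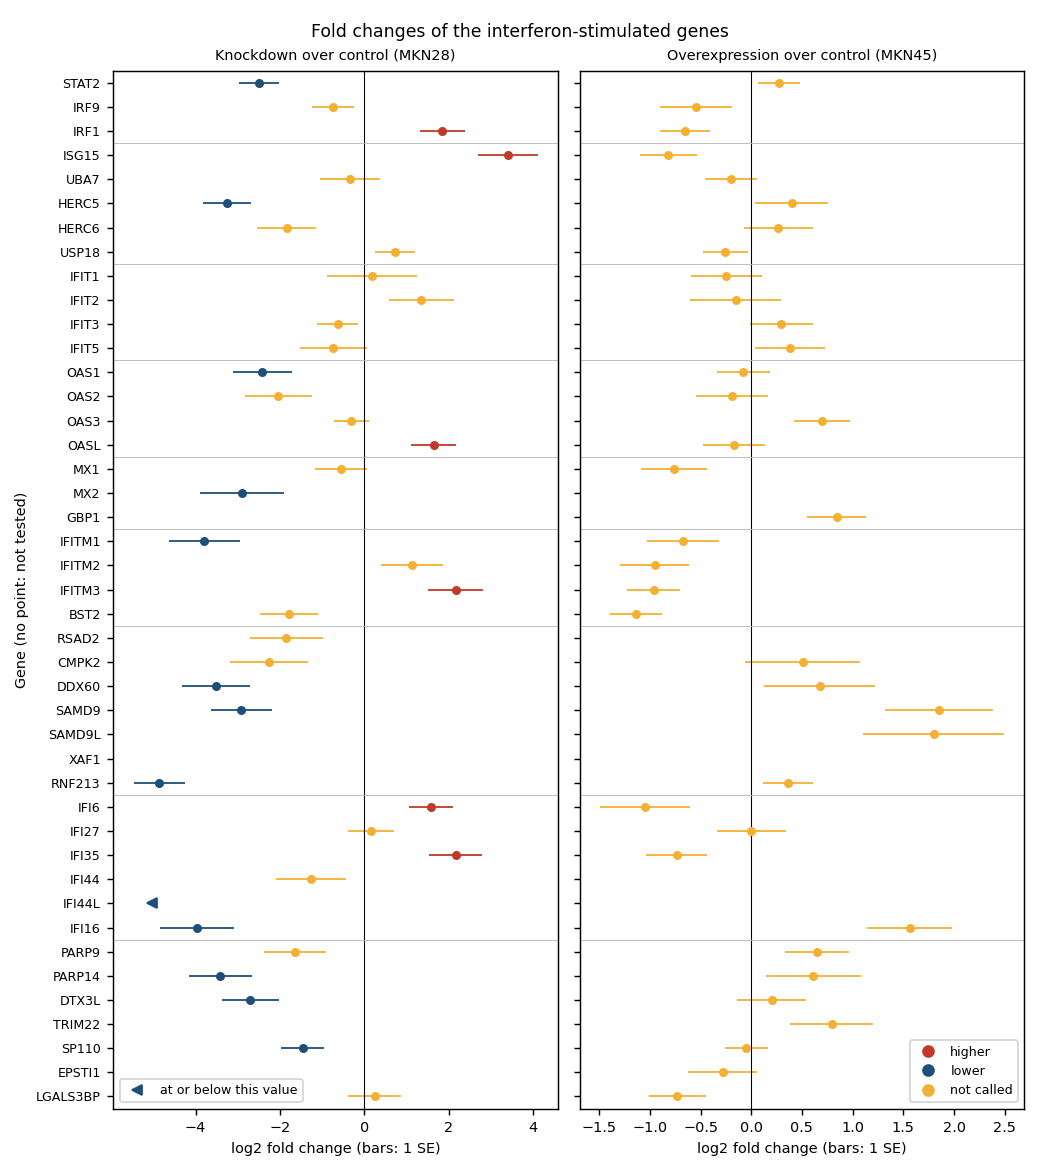
Log2 fold change (points) with 1 standard error (bars) of the members in the knockdown (left) and in the overexpression (right), by role, with the triangle for IFI44L at its upper bound. The left panel holds 6 higher and 13 lower members and the right panel none past the threshold.

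The calls rested on the libraries and on the scaling to unequal degrees. ISG15 among the higher members, and STAT2, HERC5, IFITM1, DDX60, RNF213, IFI44L, IFI16 and PARP14 among the lower ones, kept their call in every alternative run. The other 5 higher members lost it without control 1 (edgeR adjusted p = 0.0903 to 0.16), without control 3 (0.0832 to 0.146) and without knockdown library 2 (0.0549 to 0.091), and IRF1, OASL and IFI6 lost it without knockdown library 3 (0.055 to 0.111). With library totals in place of TMM factors ISG15 alone was still called higher, and the median over all genes moved from −0.20 to −0.92. BST2, IRF9 and OAS3 were then newly called lower and MX2 no longer was, where 8.77% of all genes were higher and 26.1% lower. In that fit ISG15 had a log2 fold change of 2.46 and IFITM3 of 1.21. Of the lower members, OAS1 lost its call without control 1, control 2 or knockdown library 2 (edgeR adjusted p = 0.0581 to 0.0837). MX2 (0.0738 to 0.111) and SP110 (0.0611 to 0.149) lost theirs without any 1 library other than knockdown library 1. DTX3L lost its call only with knockdown libraries 2 and 3 left out together, a fit in which the lone knockdown library is assumed to vary like the controls. Log2 fold changes of the lower members were there −1.69 for DTX3L, −1.95 for OAS1, −1.55 for MX2 and −1.09 for SP110. ISG15 had 1.92 in that fit, the other higher members 0.58 to 1.31, and IFIT2 2.64. Without knockdown library 1, 25 of 41 tested members were lower and 8 higher. Of the 38 members tested in the main fit 22 were lower there. GBP1, XAF1 and TRIM22 had 0 counts in knockdown libraries 2 and 3. They could pass the filter of that fit only through the controls, and so could not come out higher. Of all genes tested in that fit 37.5% were lower and 28.3% higher, so the shares rose in the whole transcriptome as well. Among members not called, the sign of the fold change of USP18, IFIT1, IFIT3, IFIT5, OAS3, IFITM2, IFI27, PARP9 and LGALS3BP was not the same under every scaling.

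Transcript length and GC content moved with the knockdown fold change across the whole transcriptome, and with it across the list. All genes tested fell into 4 classes of equal size by length in GENCODE 29, with median log2 fold changes of 1.18 up to 1815 nucleotides, 0.31 up to 2970, −0.60 up to 4753 and −1.65 above that. The members in these classes had medians of 1.12 (9 genes), −1.10 (8), −0.73 (13) and −3.17 (8). ISG15, IFITM3, IFI6 and IFI35 were in the shortest class, where 40.5% of all genes were called higher and 4.20% lower. IFITM1, which fell, was in that class too. In the longest class 6 of 8 members were called lower, beside 48.9% of all genes of that class. As a description, Spearman's rho between length and log2 fold change was −0.473 over 38 members and −0.536 over 14864 genes, and for GC content 0.554 and 0.525. The points of these correlations share the same 6 libraries.

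**Figure D4:**
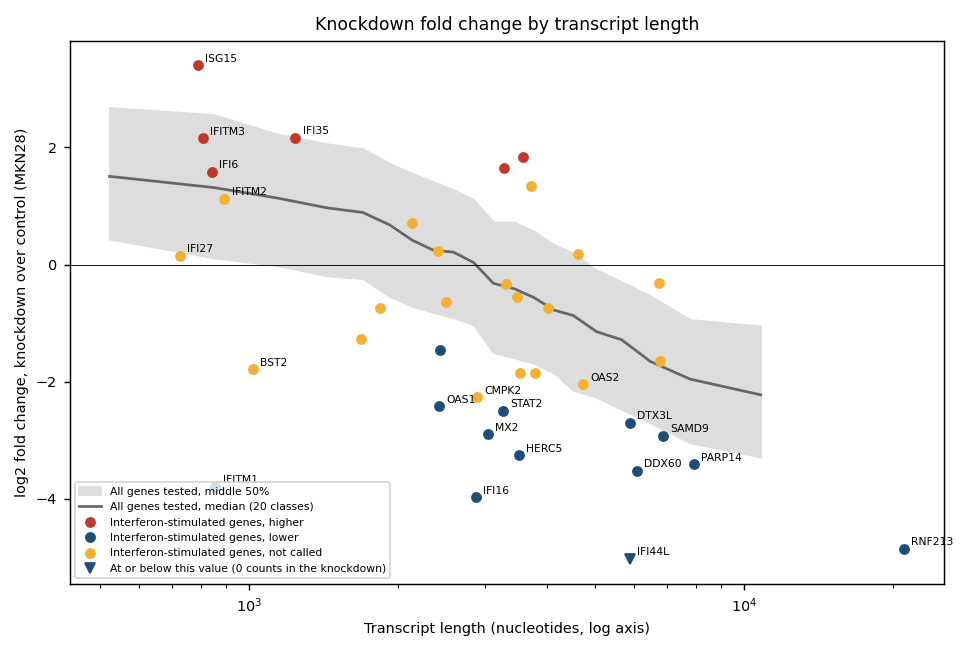
Knockdown log2 fold change of the tested members (points) against transcript length (log axis), over the median and the middle 50% of all genes tested in 20 length classes (line and band). The background falls with length. ISG15 and OASL are among the members above the band, and IFITM1, IFI16, HERC5, RNF213 and IFI44L are among those below it. IFI44L is drawn at its upper bound.

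With a smooth trend on length and GC content removed from each library, 4 members were higher (IRF1, ISG15, OASL and IFIT2) and 16 lower, beside 23.3% higher and 16.9% lower among all genes tested in that fit. BST2, CMPK2, IFI27 and IRF9 were newly called lower there. ISG15 then had a log2 fold change of 1.34 (edgeR adjusted p = 0.00843), IRF1 of 1.92 and OASL of 1.83. IFITM3 (0.28, edgeR adjusted p = 0.552), IFI35 (0.36, 0.371), IFI6 (−0.01, 0.976) and SAMD9 (−0.46, 0.282) no longer passed. IFITM1 (−5.03), RNF213 (−3.39), IFI16 (−2.94), STAT2 (−2.40), HERC5 (−2.08), PARP14 (−1.46) and DDX60 (−1.39) were lower in that fit too. The member median was −0.82 and that of all genes 0.06. Which of the 2 scalings describes the cells was not tested.

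Other genes of the pathway, came from lists written with earlier results known. Of 8 interferon genes, IFNB1, IFNL1, IFNL2 and IFNL3 were higher in the knockdown, and the other 4 were too low to test. IFNB1 had 39, 30 and 16 counts in controls and 880, 164 and 142 in the knockdown (log2 fold change 4.63, SE 0.74, edgeR adjusted p = 0.0037), with library 1 the highest as for IFIT1 and IFIT2. Of 17 genes of the receptors and JAK-STAT signalling 1 was higher (SOCS3, a feedback inhibitor, log2 fold change 2.05), 4 were lower (among them IFNAR1, a receptor chain, −2.73, PIAS1 −2.87 and PTPN11 −2.83) and 12 were not called, beside 19.2% higher and 21.6% lower among all genes, so its lower share was near the background. Of 28 further interferon-induced genes 2 were higher (TRIM21 and LY6E), 10 lower, among them the RNA sensors DDX58 (−3.34) and IFIH1 (−1.87) and the kinase EIF2AK2 (−2.13), 15 not called and 1 not tested, against the same background shares. Interferon genes were higher in the same libraries in which STAT2 and IFNAR1 were lower.

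In the overexpression in MKN45 no member passed the test. Of 38 tested members 0 were higher and 0 lower (edgeR, adjusted p under 0.05), where 0.935% of 15833 genes were higher and 0.196% lower. At an unadjusted p under 0.05, 5 members were higher (OAS3, GBP1, SAMD9, SAMD9L and IFI16) and 9 lower (IRF1, ISG15, MX1, IFITM2, IFITM3, BST2, IFI6, IFI35 and LGALS3BP), where 13.3% of all genes were higher and 13.4% lower at that threshold. DESeq2 called IFI16 and SAMD9 higher and BST2 and IFITM3 lower, 2 of 38 each way, while it called 6.56% of all genes higher and 5.03% lower. The DESeq2 counts were therefore near the background. The member median was −0.06 and that of all genes −0.0022. MX2, RSAD2, XAF1, IFI44 and IFI44L were too low to test, and IFI44L had 0 counts in all 6 libraries of this line.

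The 4 members called by DESeq2 stood as follows, in TMM-scaled CPM within MKN45. BST2 had 9.73, 14.0 and 9.94 CPM in controls and 4.88, 5.14 and 5.24 CPM in the overexpression, without overlap (log2 fold change −1.14, SE 0.26, edgeR adjusted p = 0.0573, DESeq2 adjusted p = 0.00403). IFITM3 had 215, 372 and 261 CPM against 148, 169 and 118 CPM (log2 fold change −0.96, SE 0.26, edgeR adjusted p = 0.0781, DESeq2 adjusted p = 0.0179). IFI16 had 1.23, 0.443 and 1.46 CPM against 3.10, 3.57 and 2.76 CPM (log2 fold change 1.56, SE 0.42, edgeR adjusted p = 0.0774, DESeq2 adjusted p = 0.0145). SAMD9 had 1.79, 0.369 and 1.85 CPM against 7.37, 3.77 and 3.61 CPM (log2 fold change 1.85, SE 0.53, edgeR adjusted p = 0.0854, DESeq2 adjusted p = 0.0106). In these 4 genes the groups did not overlap, but the genes were picked by their DESeq2 call. The share of all genes without overlap was not counted. SAMD9L had a log2 fold change of 1.80 (edgeR adjusted p = 0.148) and IFI6 one of −1.05 (edgeR adjusted p = 0.172), and neither was called by edgeR or DESeq2. STAT2 had 57.6, 46.1 and 51.6 CPM in controls against 59.3, 65.8 and 62.8 CPM, IRF9 had 7.77, 17.0 and 7.96 CPM against 6.40, 9.15 and 6.82 CPM, and IRF1 had 60.1, 98.5 and 64.8 CPM against 46.6, 45.8 and 49.5 CPM. ISG15 had 14.0, 25.4 and 19.7 CPM against 13.3, 9.69 and 10.5 CPM (log2 fold change −0.82, SE 0.28, edgeR adjusted p = 0.12).

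For 10 members the change with ZNF165 differed between the MKN28 and MKN45 arms in a fit of all 12 libraries. MKN28 was only knocked down and MKN45 only overexpressed. A difference between the lines therefore cannot be told apart from one between knockdown and overexpression. The contrast was the change from control to overexpression in MKN45 minus the change from knockdown to control in MKN28, which up to the fit is the knockdown plus the overexpression log2 fold change, so that opposite moves of equal size cancel. It was above 0 for ISG15 (2.60, SE 0.77, edgeR adjusted p = 0.0336) and below 0 for STAT2, HERC5, OAS1, IFITM1, BST2, RNF213, PARP14, DTX3L and SP110, among all 43 members tested, where 8.09% of all genes tested were above and 9.38% below. RNF213 had the largest difference relative to its error (−4.45, SE 0.56, edgeR adjusted p = 0.0014): it fell in the knockdown and had 221, 132 and 133 CPM in MKN45 controls against 200, 207 and 217 CPM in the overexpression. BST2 leaned down in both arms and passed in neither, with log2 fold changes of −1.79 and −1.14 and a difference of −2.92. STAT2 and RNF213 alone kept this call in every alternative run, and ISG15 lost it without any 1 of 9 libraries.

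The control cells of the lines differed in most members. Of 41 tested members 10 were higher in MKN45 (IRF1, UBA7, GBP1, IFITM1, IFITM2, IFITM3, RNF213, IFI35, EPSTI1 and LGALS3BP) and 20 were lower (ISG15, HERC5, HERC6, USP18, IFIT1, IFIT2, IFIT3, OAS2, OAS3, OASL, MX2, RSAD2, CMPK2, DDX60, SAMD9, IFI6, IFI27, IFI44, IFI44L and IFI16), beside 21.4% and 20.4% of 16088 genes. This comparison shares its control libraries with both arms above. The CPM in this paragraph and the next are scaled within the 6 control libraries. IFIT1 stood at 250, 211 and 175 CPM in MKN28 and at 5.07, 2.89 and 5.40 CPM in MKN45 (log2 fold change −5.57, SE 0.40), and ISG15 at 228, 481 and 139 CPM against 13.8, 26.9 and 19.2 CPM (−3.82, SE 0.49). SAMD9 stood at 70.1, 51.2 and 106 CPM against 1.76, 0.390 and 1.80 CPM (−5.81, SE 0.57). IFI44L had 4.32, 2.14 and 4.36 CPM against 0 counts in MKN45, at least 56.8-fold lower by the group floor, and RSAD2 had 14.8, 10.4 and 22.0 CPM against 0, 0 and 0.186 CPM. In each of these genes the lines did not overlap.

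Members higher in MKN45 included IFITM1, IFITM2 and IFITM3. LGALS3BP stood at 22.2, 44.4 and 12.6 CPM in MKN28 and at 302, 632 and 383 CPM in MKN45 (log2 fold change 4.06, SE 0.50), EPSTI1 at 0.316, 0 and 0.109 CPM against 5.90, 3.20 and 6.46 CPM (5.11, SE 0.75) and IFITM1 at 5.90, 15.1 and 1.91 CPM against 55.2, 93.8 and 31.9 CPM (2.98, SE 0.65). Again the groups did not overlap in these 3 genes. By transcript length, the highest members were ISG15 (359 CPM per kilobase), IFITM3 (105) and IFIT2 (59.9) in MKN28 controls, and IFITM3 (355), LGALS3BP (183) and IFITM1 (70.5) in MKN45 controls. IFNB1, IFNL1, IFNL2 and IFNL3 had 0 counts in all 6 MKN45 libraries. STAT2 and IRF9 were not called between the lines in the fit without pairing. Same-numbered control libraries deviated together, though 3 libraries a group cannot establish a pairing. Once the replicate number was added to the model, BST2 (1.17, edgeR adjusted p = 0.0365) and TRIM22 (1.79, 0.0445) were also higher in MKN45. STAT2 (−0.65, 0.0218), PARP9 (−1.01, 0.00347) and PARP14 (−1.13, 0.011) were also lower. In that fit 27.1% of all genes tested were higher and 28.5% lower.

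**Figure D5:**
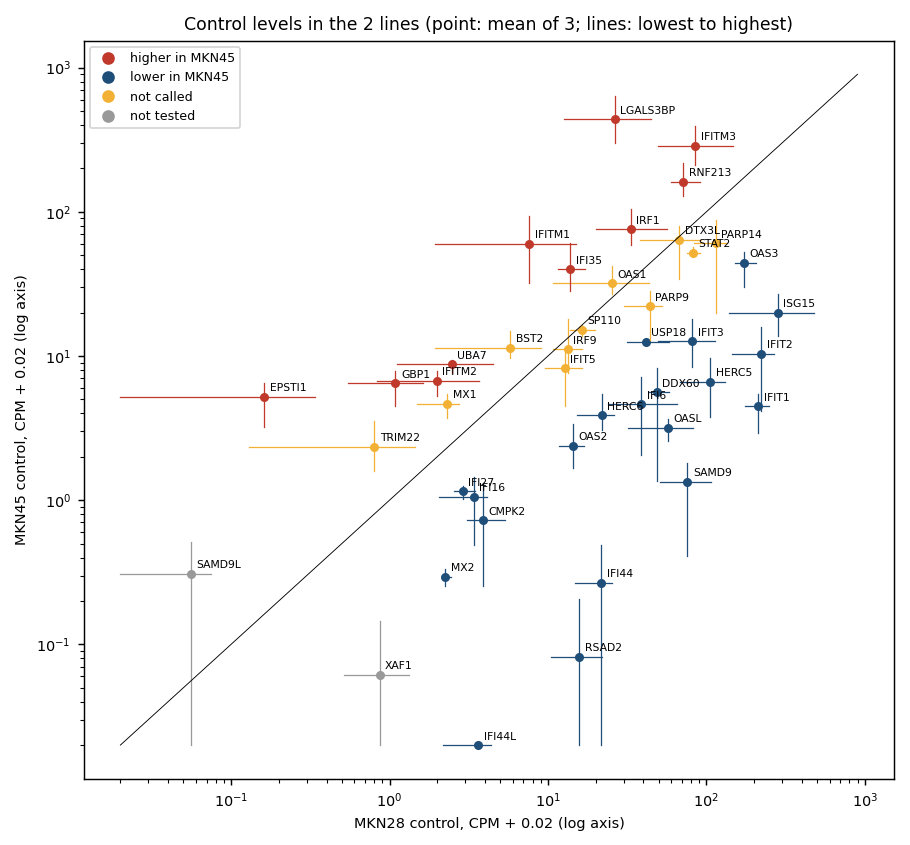
Control level of each member in MKN28 (x axis) and MKN45 (y axis), in CPM + 0.02 on log axes, as the mean of 3 libraries with lines from the lowest to the highest library and a diagonal of equal levels. LGALS3BP, EPSTI1 and IFITM1 lie far above the diagonal, and IFIT1, SAMD9, RSAD2, IFI44 and IFI44L far below it.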

How the data were processed

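The authors deposited whole-number counts for Ensembl identifiers in 1 table with a column for each library, per the file headers. HISAT2 and StringTie are named in the submitters' processing notes. How reads were counted, with which build, annotation and strand option, is not given in the sources used here, so reads of overlapping genes on opposite strands (PARP9 and DTX3L, CMPK2 and RSAD2) and of near-identical paralogs cannot be told apart. All sample columns were used, and the number of other columns was 0.

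Coordinates, lengths and GC content come from GENCODE 29 (GRCh38), and promoter sequences from RefSeq (GRCh38.p14). Labels gave the groups and replicate numbers. The members, the lists and the tests were chosen with earlier results of these data known. Genes given with values in every library are STAT2, IRF9 and IRF1, up to 10 lower and 10 higher members called in the knockdown that changed by at least 1 on the log2 scale, those called in the overexpression, and the 5 members whose knockdown library 1 differed most from the mean of libraries 2 and 3. Others named with such values (HERC6, PARP9, IFITM2, XAF1, TRIM22, GBP1, those of the overexpression and of the comparison of lines) were chosen after their values were seen.

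Counts were tested with edgeR 4.0.16 (R 4.3.3): TMM factors, filterByExpr (minimum count 10, total 15), quasi-likelihood test, Benjamini-Hochberg adjustment over all genes tested, threshold 0.05. Each arm was fitted on its own 6 libraries, the lines on the 6 controls and the difference between lines on all 12. A standard error is the absolute log2 fold change divided by the square root of F. The knockdown fit alone was run on counts simulated from MKN28 control means, with few genes changed and no length or GC trend. That run does not cover the wide shifts of the real knockdown libraries. Alternatives were DESeq2 1.42.0, library totals, no filter, at least 1 CPM in 3 libraries, leaving out libraries, knockdown libraries 2 and 3 left out together, 1 fit of 12 libraries, a replicate block, and removal of a spline trend (5 degrees of freedom) on length and GC content.

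Deviations of same-numbered libraries correlated at 0.264, 0.507 and 0.281 between the control groups of the lines, each best with its own number. The labels give no reason for a pairing, and 3 libraries a group cannot establish one. In the knockdown arm controls 1 and 2 but not 3 matched best with their own number, and in the overexpression arm no library did. Precision is set by 3 libraries a group. Single values of some genes in the pathway and marker lists are not reported here.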

Additional observations from a re-analysis of the deposited data

Results flagged for a closer look

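For 10 members the effect of higher ZNF165 differed between the MKN28 and MKN45 arms, by the test of the difference itself (edgeR, adjusted p). The line and the kind of ZNF165 change, knockdown or overexpression, cannot be told apart in it. Of the 43 members 1 (2.33%) was above 0 and 9 (20.9%) were below, beside 8.09% and 9.38% of all genes tested. The difference, on the log2 scale and with n = 3 libraries in each of 4 groups, was 2.60 for ISG15 (edgeR adjusted p = 0.0336). It was −2.19 for STAT2 (0.00886), −2.84 for HERC5 (0.0133), −2.49 for OAS1 (0.0402), −4.49 for IFITM1 (0.00947) and −2.92 for BST2 (0.0177). It was −4.45 for RNF213 (0.0014), −2.76 for PARP14 (0.0449), −2.45 for DTX3L (0.0373) and −1.46 for SP110 (0.0461). Apart from BST2, each of these members was called in the knockdown, and none was called in the overexpression. Only STAT2 and RNF213 kept the call in every alternative run.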

How the results depend on the processing

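Counts of members called in the comparison of lines stayed within 1.5 times under every alternative. In the knockdown, 6 members were higher and 13 lower, beside 19.2% and 21.6% of all genes tested. Higher members numbered 1 with library totals, where 8.77% of all genes were higher. They numbered 1 to 8 when 1 library was left out, where 6.67 to 28.3% of all genes were higher. Lower members numbered 21 in a fit of all 12 libraries, 18 of them tested in the main fit, where 27.0% of all genes were lower. They numbered 10 to 25 when 1 library was left out, where 10.6 to 37.5% of all genes were lower. The 25 came without knockdown library 1, where the share of all genes was 37.5%, and 22 of them were tested in the main fit. In the overexpression 0 were higher and 0 lower. DESeq2 gave 2 and 2, where all genes gave 6.56% and 5.03%. Removal of the length and GC trend gave 1 and 1, where all genes gave 4.15% and 4.04%. The fit without a filter gave 0 and 1, where all genes gave 1.81% and 0.882%. Leaving out 1 library gave 0 and 0 to 1, with 1 lower without MKN45 control 2, where 3.12% of all genes were lower. For the difference between lines, 1 was larger in MKN45 and 9 were smaller, beside 8.09% and 9.38% of all genes tested. Larger ones numbered 2 with DESeq2, 0 with library totals, 5 with the trend removed, 0 to 5 when 1 library was left out and 0 with knockdown libraries 2 and 3 left out together. Smaller ones numbered 4 to 20 and 2 in the last 2 of these. The cause of these shifts was not tested.

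Of single members, IFIT1 changed sign in the knockdown with the replicate block (−1.86, edgeR adjusted p = 0.0204) and without knockdown library 1 (−3.12), and ranged from −3.12 to 0.75 when 1 library was left out. With the trend removed IFI6 went to −0.014 (0.976) and IFI27 to −1.71 (0.0307). The higher share of all genes called in the knockdown was 47.0%, 25.1% with library totals and 58.0% with the trend removed.

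In the arms the replicate numbers paired the libraries in part or not at all. Deviations of same-numbered libraries correlated at 0.291, 0.431 and −0.357 in the knockdown. There controls 1 and 2 correlated best with their own number and control 3 with number 1. In the overexpression the values were −0.0553, −0.0547 and 0.0867, and no library correlated best with its own number. With the number as a block, 6 members were higher and 19 lower in the knockdown, where 19.5% and 27.3% of all genes tested were. In the overexpression 0 and 0 were called, where all genes gave 0.0316% and 0.0189%. For the comparison of lines the block gave 12 higher and 23 lower, where all genes gave 27.1% and 28.5%. For the difference between lines it gave 1 and 10, where all genes gave 6.87% and 9.01%. At these depths a member under about 0.153 to 0.248 CPM in a library cannot be told from 0, which limits SAMD9L, XAF1, TRIM22 and EPSTI1 in MKN28 and RSAD2, IFI44, IFI44L and MX2 in MKN45. In knockdown libraries 2 and 3 the same floor limits GBP1 and the called members IFI44L, MX2 and IFI16. The sizes of these called falls are therefore uncertain.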
